A study of Mus musculus with 8 samples.

Results

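Heat shock chaperone transcripts were followed in group 2 innate lymphoid cells (ILC2) sorted from mouse thymus, in 4 Il25 KO and 4 WT libraries. The 10 genes were chosen by name: Hspa1a, Hspa1b, Hsph1, Dnajb1 and Hsp90aa1, taken as the heat-inducible members, and Hspa8, Hsp90ab1, Dnaja1, Hspd1 and Hspe1, taken as the constitutive members. They were selected on earlier KO against WT results of these same libraries, so their values are a description and give no independent evidence of a difference. All 10 were among the 10913 genes listed, and 9 were among the 9016 genes that passed the filter on low counts; Dnaja1 did not pass.

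The knockout animals lacked Il25, which encodes interleukin-25, an epithelial cytokine that activates ILC2, and the controls were wild-type animals matched for age. Per the labels, all animals were young males, the cells were described as untreated, and every thymus was dissociated with Liberase TM and DNase before sorting. The kind of knockout allele, the exact age and whether each library came from a separate animal could not be learned from the labels, so the spread between libraries may be partly technical. Il25 itself was not analysed here, so the genotype was not checked against its transcript.

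Heat shock proteins are chaperones, which hold or refold other proteins. HSP70 proteins bind exposed hydrophobic stretches of a client, J proteins deliver the client and start ATP hydrolysis, HSP110 proteins exchange the nucleotide, and HSP90 proteins act on clients that are nearly folded. The transcription factor HSF1 raises the inducible genes when unfolded proteins accumulate, by binding repeats of GAA and TTC units near their starts. The relatives taken as constitutive are made in unstressed cells, which does not exclude that HSF1 raises them too.

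Libraries held 1915365 to 3250718 UMIs, which are counts of single captured transcripts, over 10787 to 10866 detected genes. Levels are given as CPM, UMI counts scaled to a common library size. Summed ILC2 markers (11 genes, among them Gata3, Il17rb and Il7r) stood at 1053 to 1288 (KO) and 1071 to 1244 CPM (WT). Thymocyte and T cell markers (12 genes) stood at 3649 to 4191 (KO) and 3385 to 4467 CPM (WT), so KO and WT overlapped. Their sum exceeded that of the ILC2 markers in every library. The lists hold different genes, so the sums do not give proportions of cells, and the purity of the sort was not tested. The measured B cell marker, Cd79b, stood at 52.7 to 61.3 CPM against 50.8 to 54.7 CPM, and Cd68 and Lyz2, the macrophage markers, at 31.4 to 40.0 CPM against 22.5 to 39.6 CPM. In sorted bulk cells, fewer cells of a type and less RNA per cell cannot be told apart.

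Hspa1a and Hspa1b, neighbouring genes that encode nearly the same stress-inducible HSP70, were among the most abundant transcripts of these libraries, and both stood higher in KO. Hspa1b ranked 4 and Hspa1a ranked 7 of 10913 genes by mean CPM. Hspa1b was counted at 11137, 8350, 8036 and 10931 CPM in KO replicates 1 to 4 and at 8046, 4837, 5542 and 6771 CPM in WT replicates 1 to 4. KO replicates 1 and 4 were the highest libraries and WT replicate 2 the lowest, and the groups met only where KO replicate 3 lay just under WT replicate 1. The means were 9613 ± 1647 (KO) and 6299 ± 1412 CPM (WT) (SD, n = 4), a log2 difference of 0.61 ± 0.16 (SE) or 1.53-fold, with an edgeR adjusted p = 0.153 over all tested genes.

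Hspa1a followed nearly the same order. Its counts were 10079, 7586, 7701 and 10924 CPM in KO replicates 1 to 4 and 7793, 4509, 5438 and 6721 CPM in WT replicates 1 to 4. WT replicate 1 lay above KO replicates 2 and 3, and WT replicate 2 was again the lowest library. The log2 difference was 0.57 ± 0.16, or 1.48-fold (edgeR adjusted p = 0.196). Neither gene therefore passed the threshold of 0.05. In the authors' deposited table, with its sign turned to KO over WT, Hspa1b had a log2 fold change of 0.61 with an adjusted p of 0.0274. In the authors' deposited table Hspa1a had 0.57 with an adjusted p of 0.0839.

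The near-identity of the genes could let reads be shared between them. Of all 50-base windows of the Hspa1a transcript, 58.8% also occurred in Hspa1b, and 62.3% of those of Hspa1b occurred in Hspa1a. No window of the last 500 bases, the end that a 3′ method targets, occurred in the other gene. Where the reads lay on these transcripts was not examined, and sharing of reads was not tested. The ratio of Hspa1b to Hspa1a counts stayed at 1 to 1.1 in the KO libraries and at 1.01 to 1.07 in the WT libraries. With the counts of both genes summed as a single gene, a choice made after seeing the data, the log2 difference was 0.59 ± 0.16 (edgeR adjusted p = 0.185).

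The upstream sequences of this gene pair are shown because they carry the same GAA and TTC element at the same place. The windows are the 250 bases before the RefSeq start on the minus strand of build GRCm38.p6, chr17:34972157-34972406 for Hspa1a and chr17:34959239-34959488 for Hspa1b. They are intergenic in GENCODE M21, and capitals mark the element.
Hspa1a: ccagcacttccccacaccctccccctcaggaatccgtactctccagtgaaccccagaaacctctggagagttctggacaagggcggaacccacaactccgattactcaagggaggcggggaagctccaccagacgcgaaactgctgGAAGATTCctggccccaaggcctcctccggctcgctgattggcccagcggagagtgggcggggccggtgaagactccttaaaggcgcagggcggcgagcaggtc
Hspa1b: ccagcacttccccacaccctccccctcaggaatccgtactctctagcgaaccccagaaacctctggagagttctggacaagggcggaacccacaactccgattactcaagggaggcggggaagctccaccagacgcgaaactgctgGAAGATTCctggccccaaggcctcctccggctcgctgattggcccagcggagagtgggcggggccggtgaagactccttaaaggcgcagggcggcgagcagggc
The windows were identical at 247 of 250 bases, and the element lay 104 to 97 bases before the start in both.

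**Figure D1:**
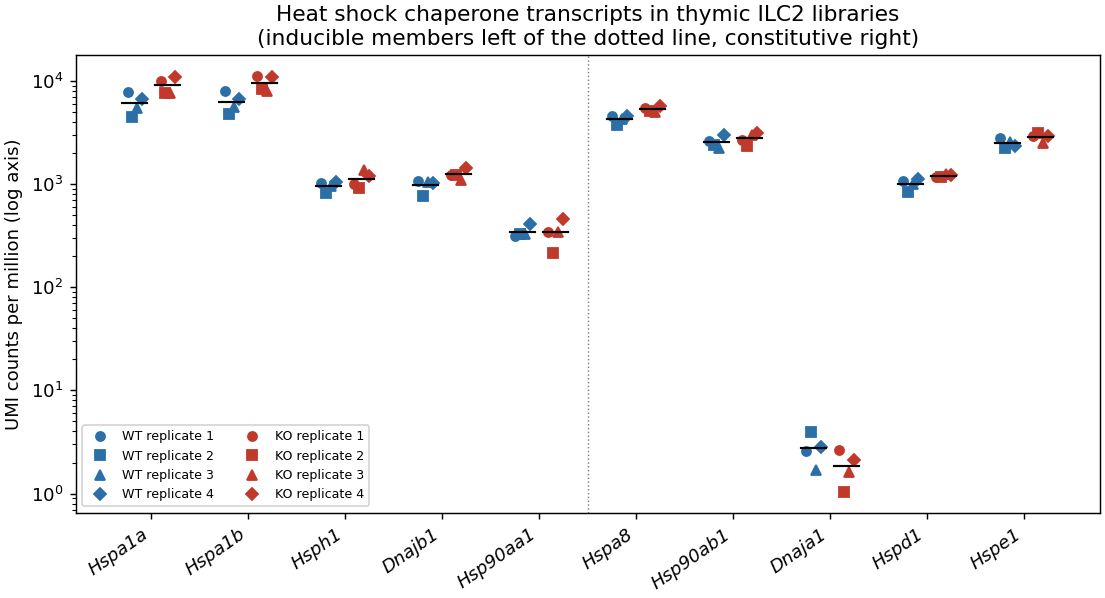
Levels in CPM (log axis) of the 10 chaperone genes in each library, WT in blue and KO in red, with the marker shape giving the replicate and a line the group mean. Hspa1a and Hspa1b lie at the top, Hspa8, Dnajb1 and Hspd1 have every KO library above every WT library, and Dnaja1 lies at 1.04 to 3.95 CPM.

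Dnajb1, the J protein that works with inducible HSP70, stood higher in every KO library than in any WT library. Its counts were 1226, 1232, 1106 and 1445 CPM in KO replicates 1 to 4 and 1071, 773, 1041 and 1032 CPM in WT replicates 1 to 4. KO replicate 4 was highest, and WT replicate 2 lay well below the other WT libraries. The log2 difference was 0.35 ± 0.13, or 1.28-fold (edgeR adjusted p = 0.285). Its upstream window (250 bases, plus strand, GRCm38.p6, chr8:83607925-83608174) is shown because, of the 7 members with a window, it is the gene without the element. GENCODE M21 places an exon of a non-coding transcript of the neighbouring gene Tecr across part of it.
Dnajb1: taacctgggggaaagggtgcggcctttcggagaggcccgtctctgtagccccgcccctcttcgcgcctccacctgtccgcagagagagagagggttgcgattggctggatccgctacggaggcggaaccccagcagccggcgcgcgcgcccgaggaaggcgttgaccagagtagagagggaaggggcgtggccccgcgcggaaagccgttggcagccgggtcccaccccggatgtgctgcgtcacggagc

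Hsph1, the HSP110 nucleotide exchange factor, did not separate the groups. It stood at 995.7, 927.5, 1367 and 1200 CPM in KO replicates 1 to 4 and at 1038, 819.7, 965.7 and 1047 CPM in WT replicates 1 to 4. KO replicates 3 and 4 were above all WT libraries, while KO replicates 1 and 2 lay within the WT range. The log2 difference was 0.21 ± 0.13 (edgeR adjusted p = 0.577). The 30 bases around its element, on the minus strand at chr5:149636351-149636380 of GRCm38.p6, overlap the first exon of a GENCODE M21 transcript of Hsph1 and are shown with the element in capitals.
Hsph1: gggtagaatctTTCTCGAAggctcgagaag

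Hsp90aa1, the stress-inducible cytosolic HSP90, had nearly equal means. The counts were 344.4, 215.6, 346.6 and 458.7 CPM in KO replicates 1 to 4 and 317.0, 327.2, 328.8 and 409.7 CPM in WT replicates 1 to 4. KO libraries were both the highest (replicate 4) and the lowest (replicate 2), so the WT range lay inside the KO range. The log2 difference was -0.02 ± 0.16 (edgeR adjusted p = 0.987), with a sign that turned to 0.01 when libraries were scaled by their size alone. The inducible members therefore did not stand apart as a block: Hspa1a, Hspa1b and Dnajb1 had 1.28-fold to 1.53-fold higher means in KO, and Hsp90aa1 0.988-fold.

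Among the constitutive members, Hspa8, the cognate HSP70 of unstressed cells, was the most abundant at rank 26 and separated the groups. It stood at 5434, 5131, 5011 and 5742 CPM in KO replicates 1 to 4 and at 4583, 3721, 4278 and 4572 CPM in WT replicates 1 to 4. All KO libraries lay above all WT libraries. The log2 difference was 0.31 ± 0.12, or 1.24-fold (edgeR adjusted p = 0.324).

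Hsp90ab1, the constitutive cytosolic HSP90, overlapped between the groups. It stood at 2691, 2328, 2970 and 3155 CPM in KO replicates 1 to 4 and at 2602, 2372, 2266 and 3032 CPM in WT replicates 1 to 4. Replicate 4 was highest in each group. The log2 difference was 0.12 ± 0.13 (edgeR adjusted p = 0.779). Hsp90ab1 had 6.88 to 10.8 times the counts of Hsp90aa1 in KO and 6.89 to 8.21 times in WT.

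Dnaja1, a J protein partner of Hspa8, was counted at only 7, 2, 5 and 5 UMIs in KO replicates 1 to 4 and 6, 10, 5 and 9 UMIs in WT replicates 1 to 4. These counts are too low for a comparison. Whether the 3′ counting missed an end of the Dnaja1 transcript was not tested, so the counts are not read as its level in these cells.

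Hspd1 and Hspe1 encode the mitochondrial HSP60 and its lid HSP10, which together form the folding chamber of the matrix. Hspd1 stood at 1162, 1173, 1249 and 1218 CPM in KO replicates 1 to 4 and at 1069, 833.5, 1014 and 1129 CPM in WT replicates 1 to 4. The KO libraries were tightly grouped and all lay above the WT libraries, with a log2 difference of 0.25 ± 0.11 (edgeR adjusted p = 0.442). Hspe1 stood at 2909, 3116, 2501 and 2901 CPM in KO replicates 1 to 4 and at 2784, 2253, 2540 and 2364 CPM in WT replicates 1 to 4. KO replicate 3 lay within the WT range, and the log2 difference was 0.20 ± 0.12 (edgeR adjusted p = 0.552). Hspe1 had 2.39 ± 0.28 times the counts of Hspd1 in KO and 2.48 ± 0.27 times in WT (SD, n = 4), so their balance differed by less than the spread between libraries.

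These genes lie head to head on chromosome 1, and the RefSeq starts of Hspe1 and of a shorter Hspd1 transcript are 216 bases apart. The 30 bases that hold their shared element, at chr1:55088053-55088082 of GRCm38.p6, are shown as read on the plus strand, in the direction of Hspe1. They lie in a first exon that GENCODE M21 gives to another Hspd1 transcript. The capitals mark a run of alternating TTC and GAA units, longer than in the other members.
Hspe1: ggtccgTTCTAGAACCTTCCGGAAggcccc

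**Figure D2:**
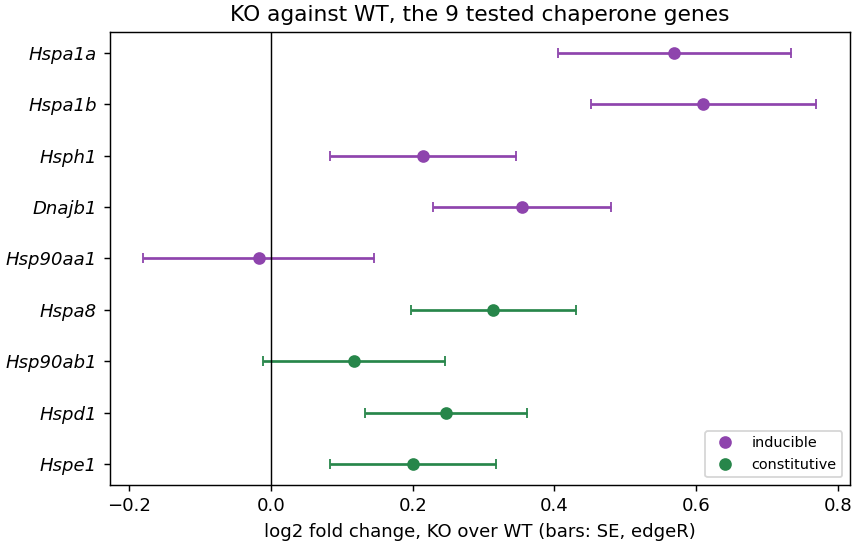
Log2 fold change of KO over WT with its standard error (bars) for the 9 tested chaperone genes, inducible in purple and constitutive in green. Hspa1b and Hspa1a lie farthest to the right at 0.61 and 0.57, the other values lie between -0.02 and 0.35, and Hsp90aa1 lies at 0, with a sign that depends on the scaling.

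None of the 9 tested members was called by edgeR at an adjusted p under 0.05, where 0.211% of all tested genes were called in either direction. At an unadjusted p under 0.05 there were 5 of 9, Hspa1a, Hspa1b, Dnajb1, Hspa8 and Hspd1, beside 977 of 9016 genes (10.8%). DESeq2, run as an alternative, called Hspa1b, with an adjusted p of 0.0224. In 8 of 9 members the fitted log2 difference was above 0, beside 49.5% of all tested genes. With library size alone it was above 0 in all 9, and the share of all genes was not computed for that scaling. Every KO library stood above every WT library in 3 of 9 members, Dnajb1, Hspa8 and Hspd1, beside 2.92% of all tested genes. The members' median log2 difference was 0.25, and that of all tested genes was 0.00. Since the members were picked with this contrast in view, nothing is read from these counts.

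The members together took 3.37% ± 0.316 of all UMIs in KO and 2.47% ± 0.357 in WT (SD, n = 4). The ranges, 3.02% to 3.68% and 2% to 2.84%, did not overlap. These are shares of unscaled UMI totals for members picked on this contrast, and nothing is read from them. Hspa1a and Hspa1b alone took 1.6% to 2.17% in KO and 0.913% to 1.54% in WT. The constitutive members took 1.18% to 1.25% in KO and 0.897% to 1.08% in WT. Rescaling the libraries without the counts of Hspa1a and Hspa1b left the log2 difference of Hspa8 at 0.31. With at most 2.17% of UMIs removed, this rescaling could change little, so nothing is concluded from it.

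The inducible members were then set against the constitutive members within each library, as the difference of their mean log2(CPM + 1). It was 1.61, 1.49, 1.61 and 1.78 in KO replicates 1 to 4 and 1.49, 1.16, 1.44 and 1.43 in WT replicates 1 to 4. The groups barely parted, with KO replicate 2 next to WT replicate 1, and WT replicate 2 was the lowest. The means were 1.62 ± 0.12 in KO and 1.38 ± 0.15 in WT (SD, n = 4), so the balance stood 0.24 higher in KO on the log2 scale, a description of members picked on this contrast, from which nothing is read.

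That difference moved with the genes that entered it. Without Dnaja1 it was 0.12, and the groups overlapped, with KO values from -0.57 to -0.19 and WT values from -0.58 to -0.39. Without Dnaja1, Hspa1a and Hspa1b it was -0.05. Both comparisons were added after seeing the data. A planned comparison, without Hsp90aa1 and with Dnaja1 kept in, gave 0.34. Of the classes themselves, the inducible mean was 11.02 ± 0.22 in KO and 10.68 ± 0.21 in WT, and the constitutive mean without Dnaja1 was 11.38 ± 0.06 in KO and 11.16 ± 0.13 in WT.

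Ratios of single genes within a library overlapped between the groups. The summed counts of Hspa1a and Hspa1b were 3.90, 3.11, 3.14 and 3.81 times those of Hspa8 in KO replicates 1 to 4. In WT replicates 1 to 4 they were 3.46, 2.51, 2.57 and 2.95 times those of Hspa8. WT replicate 1 lay above KO replicates 2 and 3, and the means were 3.49 ± 0.42 and 2.87 ± 0.44 (SD, n = 4). Dnajb1 had 0.235 ± 0.014 times the counts of Hspa8 in KO and 0.228 ± 0.015 times in WT, so Dnajb1 and Hspa8 kept nearly the same proportion in both groups. Hsph1 had 0.211 ± 0.043 times the counts of Hspa8 in KO and 0.225 ± 0.0037 times in WT.

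**Figure D3:**
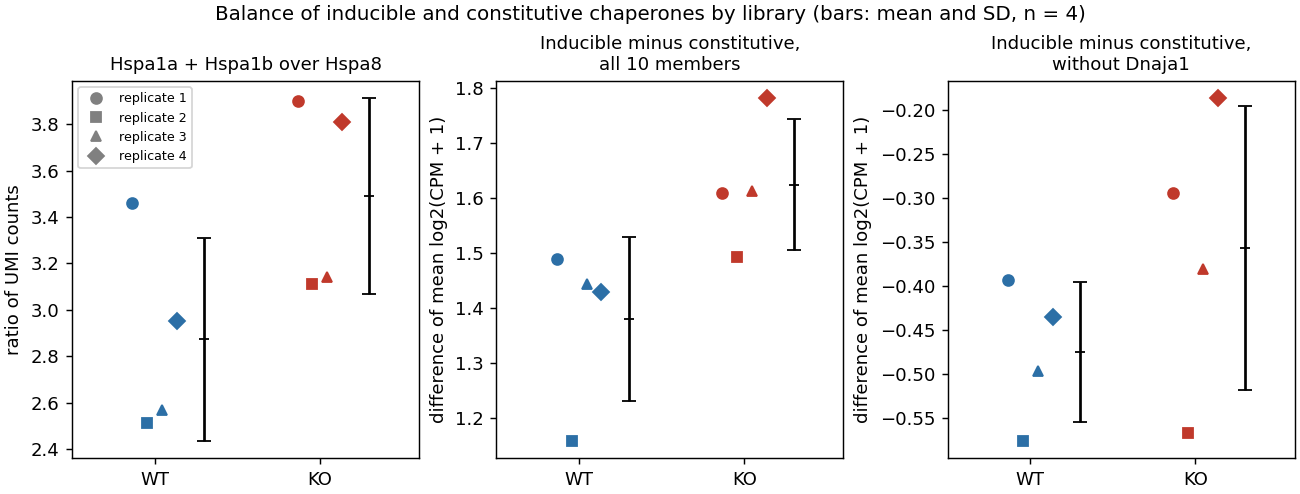
Balance of inducible and constitutive chaperones in each library, as the ratio of Hspa1a plus Hspa1b counts to Hspa8 counts (left), as the inducible minus constitutive difference of mean log2(CPM + 1) over all 10 members (middle) and without Dnaja1 (right); bars give the mean and SD of 4 libraries, and the axes do not start at 0. KO lies 0.24 above WT in the middle panel and 0.12 in the right panel, where the groups overlap.

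The upstream windows were searched for GAANNTTC and TTCNNGAA, 8-letter elements that read the same on both strands, and for the 13-letter GAANNTTCNNGAA and TTCNNGAANNTTC, of which every match also holds an 8-letter element. RefSeq windows matched 7 of the 10 members, Hspa8, Hsp90aa1 and Hsp90ab1 being named only. The 8-letter element occurred in 6 of these 7, beside 14.5% of 27025 genes with a window. A gene with several windows counted if any of them matched. The 6 are not separate matches, since Hspa1a and Hspa1b have nearly identical windows and Hspd1 and Hspe1 match through the same stretch. The longer element occurred in 2, Hspd1 and Hspe1, through the stretch they share, beside 0.514% of all genes. In Dnaja1 the 8-letter element lay 124 to 117 bases before a start. Among these 7 genes, exact matches did not follow the classes, since constitutive Hspd1, Hspe1 and Dnaja1 held them and inducible Dnajb1 did not. A match is a description of letters and says nothing of binding by HSF1.

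**Figure D4:**
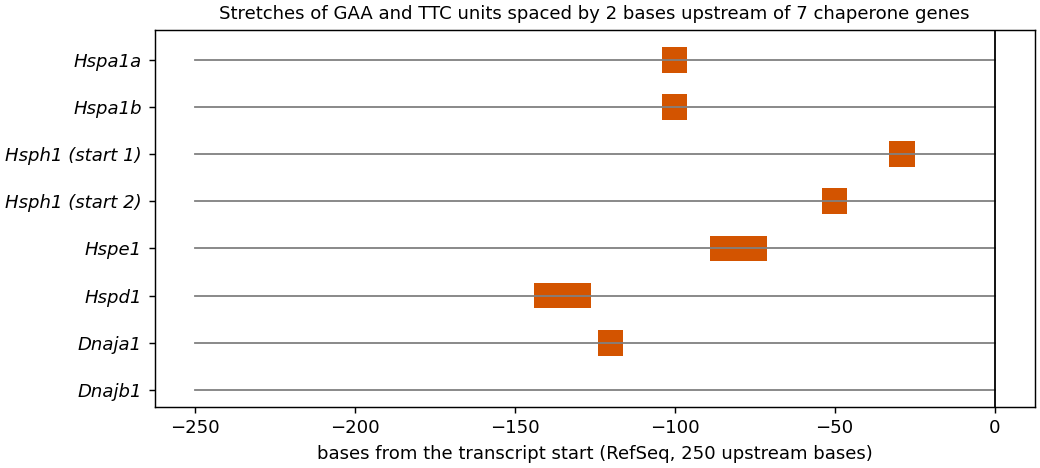
Position of the GAA and TTC elements (orange) in the 250 bases before the RefSeq start (0, in bases) of 7 chaperone genes. Hspa1a and Hspa1b share 1 element at 104 to 97 bases, Hspe1 and Hspd1 share a longer one seen from opposite strands, and Dnajb1 has none.

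The other chaperone lists had median log2 differences close to 0. Over 52 tested genes of HSF1 regulation, co-chaperones, other HSP70, HSP110, J and small HSP genes, mitochondrial chaperones and the TRiC chaperonin, edgeR called 0, beside 0.211% of all genes, and DESeq2 called 0. At an unadjusted p under 0.05 edgeR gave 6 of 52, near the 10.8% of all tested genes. Hsf1 itself had a log2 difference of -0.06.

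The 6 tested regulators had a median log2 difference of -0.03, with 2 above 0. Stub1, a ubiquitin ligase for HSP70 clients, stood at 205 ± 20.3 (KO) and 208 ± 13.8 CPM (WT), and Bag1, a nucleotide exchange factor, at 200 ± 16.7 and 204 ± 9.73 CPM (SD, n = 4). Of the 12 co-chaperones 5 were above 0, with a median of -0.08. Fkbp4, an HSP90 co-chaperone, stood at 617 ± 72.1 (KO) and 659 ± 15.6 CPM (WT). Stip1, which links HSP70 to HSP90, stood at 396 ± 19.8 (KO) and 416 ± 46.0 CPM (WT).

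The 10 mitochondrial genes had 4 above 0 and a median of -0.04, beside 0.25 and 0.20 for Hspd1 and Hspe1. Hspa9, the mitochondrial HSP70, stood at 189 ± 25.4 (KO) and 186 ± 28.7 CPM (WT), a log2 difference of 0.02 ± 0.13. The 8 subunits of TRiC, which folds actin and tubulin, had 4 above 0 and a median of -0.01, with Cct2 at 823 ± 39.2 (KO) and 787 ± 63.0 CPM (WT).

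The 16 other HSP70, HSP110, J and small HSP genes spread the most, from -0.56 to 0.62, with 8 above 0 and a median of -0.02. Hspb1, the small heat shock protein HSP27, stood at 804, 471, 744 and 1480 CPM in KO replicates 1 to 4 and at 700, 500, 311 and 773 CPM in WT replicates 1 to 4. KO replicate 4 was far above the rest, and the log2 difference was 0.62 ± 0.27 (edgeR adjusted p = 0.41). Dnajb9, a J protein of the endoplasmic reticulum named after its values were seen, was the only gene of these 52 whose KO libraries all lay above the WT libraries, at 28.2 to 37.9 CPM against 21.7 to 25.3 CPM (edgeR adjusted p = 0.228), beside 2.92% of all tested genes.

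**Figure D5:**
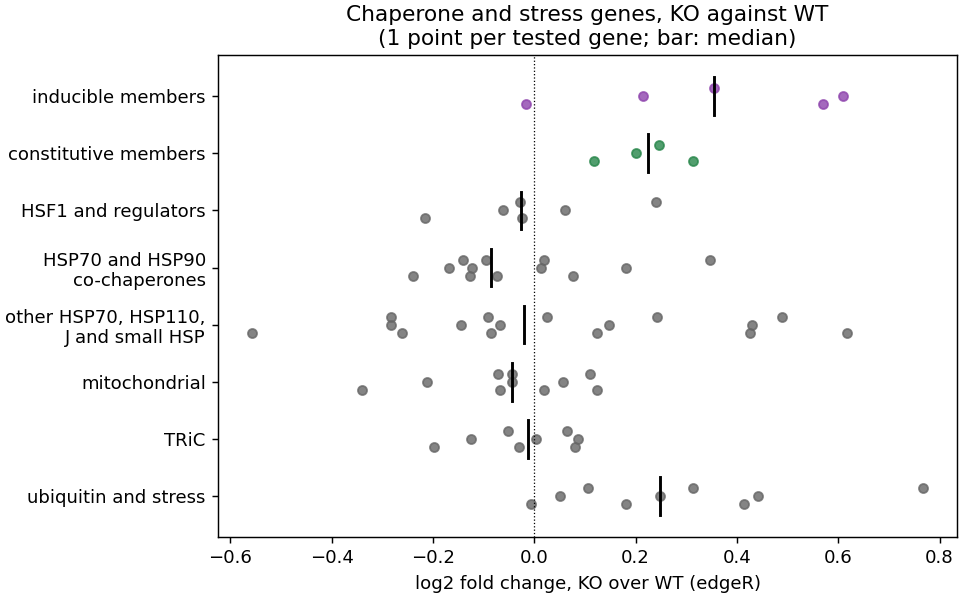
Log2 fold change of KO over WT for each tested gene of the chaperone and stress lists (points, in log2 units), with the median of each list as a bar. The medians are 0.36 for the inducible and 0.22 for the constitutive members, -0.08 to -0.01 for the 5 other chaperone lists and 0.25 for the ubiquitin and stress list.

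Genes of ubiquitin and of general stress lay nearer to the members, with 8 of 9 above 0, a median log2 difference of 0.25 and 0 called by edgeR, beside 0.211% of all genes. At an unadjusted p under 0.05 there were 4 of these 9, beside 10.8% of all genes. Ubb, a polyubiquitin gene, had a log2 difference of 0.11 ± 0.12, and Atf4, a regulator of the integrated stress response, had 0.18 ± 0.11.

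Immediate early genes, which are transcribed within minutes of a stimulus, stood higher in KO, as most members did; the list was drawn up with earlier results of these libraries known and shares Atf3 with the stress list. Of 16 tested, edgeR called 7 as risen, beside 0.211% of all genes, and all 16 were above 0, with a median log2 difference of 0.59. Jun rose by 0.93 ± 0.14 (edgeR adjusted p = 0.0099), with WT at 646 ± 146 CPM and KO at 1230 ± 134 CPM. Fos rose by 0.84 ± 0.16, Dusp1 by 0.84 ± 0.14, Klf2 by 0.84 ± 0.16, Egr1 by 0.76 ± 0.14, Klf6 by 0.65 ± 0.13 and Junb by 0.65 ± 0.13. Of the whole table edgeR called 19 genes. It called 1 without WT replicate 2, 4 without WT replicate 4 and 14 to 39 with another single library left out. Which immediate early genes these fits called was not examined. The list's mean log2(CPM + 1) was 8.07, 7.80, 7.92 and 7.88 in KO replicates 1 to 4 and 7.60, 7.16, 7.11 and 7.38 in WT replicates 1 to 4. KO replicate 1 was highest, and WT replicates 2 and 3 were lowest, as they were for Hspa1a and Hspa1b. The part of this program in the chaperone values was not tested.

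Among the tested genes whose log2(CPM + 1) followed Hspa1b most closely over the 8 libraries were Phlda1 (Pearson r = 0.973, Spearman rho = 0.905), Klf2 (0.968 and 0.929), Maff (0.968 and 0.976) and Borcs6 (0.967 and 0.976). Those closest to Hspa8 were Odc1 (0.970 and 0.929), Maff (0.969 and 0.976), Borcs6 (0.964 and 0.976), Ier2 (0.949 and 0.929) and Tdrd3 (0.946 and 0.976). Maff and Borcs6 appeared beside both members. These coefficients span both groups, so they also hold the difference between KO and WT, and they are among the highest of 9007 genes compared.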

How the data were processed

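Poly(A) RNA of sorted thymic ILC2 was measured by MARS-seq, which sequences 3′ ends and tags each molecule with a UMI. Build mm10 and the tools STAR 2.5.2b, HTSeq, bcl2fastq, cutadapt and DESeq2 are listed in the submitters' processing notes; settings, strand and the treatment of reads that match several genes are not given there. Raw UMI counts of each gene in each library were deposited by the authors, and these counts were the base of every test. From the authors' deposited log2 fold changes and p-values, the members' rows were read, with the sign turned.

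Counts were filtered with filterByExpr (minimum count 10), scaled by TMM and fitted with edgeR 4.0.16 in R 4.3.3, with the group as the only term, by the quasi-likelihood test; p-values were adjusted after Benjamini and Hochberg over all 9016 tested genes, with a threshold of 0.05. The script was tested on simulated data. CPM used TMM-scaled library sizes, and the class balance a pseudocount of 1 CPM. SDs between libraries hold counting error and library differences together. No 2 libraries of the same group agreed within sampling noise.

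The members and all gene lists were chosen with earlier results of these data known. Named were all members, from each other list its called genes or else its 3 most abundant, of which the text prints a part, and the 5 genes closest to Hspa1b and to Hspa8; 1 gene that the rule takes is not reported here, and Hsf1 and Dnajb9 were named outside it. Sequences came from RefSeq (GRCm38.p6) and positions from GENCODE M21, both of the same assembly as mm10. Alternatives covered scaling, filter, tool (DESeq2 1.42.0, limma-voom 3.58.1), the replicate number as a block, total count as a covariate, the threshold, the pseudocount, class membership and each library left out.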

Additional observations from a re-analysis of the deposited data

Results flagged for a closer look

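Of 102 groups of 4 libraries examined, 3 held a library far from the other libraries of its group; chance alone marks about 1 group in 20. Dnajb1 stood at 773 CPM in WT replicate 2, against 1032 to 1071 CPM in the other WT libraries. Hsp90aa1 stood at 409.7 CPM in WT replicate 4, against 317 to 328.8 CPM in the other WT libraries. Gapdh, a glycolytic housekeeping gene outside the chaperones, stood at 621 CPM in KO replicate 1, against 15.07 to 28.04 CPM in the other KO libraries; the WT libraries ran from 21.5 to 1167 CPM.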

How the results depend on the processing

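The number of genes called, 19 with edgeR, was 45 with DESeq2, 60 with the replicate block, 40 with total count as a covariate and 42 at a threshold of 0.1. It ran from 1 (without WT replicate 2) to 39 (without KO replicate 2) when each library was left out. Members called were 1 with DESeq2 (Hspa1b), 2 with the replicate block (Hspa1a at 0.58, adjusted p = 0.0268, and Hspa1b at 0.62, adjusted p = 0.0173) and 0 under each other alternative run; the other chaperone lists had 0 called under each alternative run for them, which did not include the 0.1 threshold. The replicate numbers were not taken to pair libraries. Deviations of same-numbered libraries correlated at 0.139, -0.005, -0.0003 and 0.09 for replicates 1 to 4, and 2 of 4 correlated best with their own number. These values do not settle whether the libraries were paired. The log2 difference of Hsp90aa1 turned to 0.0065 with library size alone and to 0.14 with total count as a covariate, and ran from -0.19 to 0.15 over the left-out libraries; the cause was not tested. The other 8 tested members kept their direction under all 17 alternatives, Hspa1b between 0.50 (adjusted p = 0.47, without WT replicate 2) and 0.75 (adjusted p = 0.0695, without WT replicate 1). A left-out library moved 3 of them by over 1.5 times: Hsph1, 0.21, to 0.11 without KO replicate 3 and 0.14 without WT replicate 2; Hspd1, 0.25, to 0.16 without WT replicate 2; and Hsp90ab1, 0.12, to 0.05 and 0.06 without KO replicate 4 or WT replicate 3, and to 0.20 and 0.21 without KO replicate 2 or WT replicate 4. The class balance of 0.24 was 0.12 without Dnaja1 and -0.055 without Dnaja1, Hspa1a and Hspa1b. With Dnaja1 kept in, it ran from 0.17 to 0.29 over the left-out libraries. It was then 0.34 without Hsp90aa1 and 0.31 as the log2 ratio of summed CPM. It was 0.18 with a pseudocount of 10 CPM, and 0.18 with Hspa1a and Hspa1b summed as 1 gene. Dnaja1, at 2 to 10 UMIs a library, is too low to compare; the cause of its low count was not tested.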
